A study of Mus musculus with 16 samples.

Results

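Immediate early and AP-1 genes were examined in cultured mouse dorsal root ganglia, which hold the cell bodies of sensory neurons, in which Hif1a had been knocked down or human HIF-1α had been overexpressed and the axons had then been cut. The genes are Fos, Fosl2, Jun, Junb and Atf3, which encode subunits that can form AP-1 type dimers, the transcription factor gene Egr1, and the early response genes Ier2, Ier3, Dusp1 and Btg2. They were chosen by name, and their probes were found by gene symbol among the 25697 probes of the array. Of these 10 genes, 9 had a probe, with 1 probe each, and Fosl2 was not analysed here. The probes for Fos, Jun, Junb, Atf3, Egr1, Ier3 and Dusp1 passed the filter on dim probes, as did 15086 probes in all. HIF-1α, a transcription factor subunit that low oxygen stabilises, was the factor under study, and the design asked which genes depend on it in uninjured and injured sensory neurons.

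RNA came from CD-1 embryos at embryonic day 13, and the cells of all 16 samples received a lentivirus on day 4 in culture. The control virus carried a MISSION control shRNA, the knockdown virus MISSION shRNAs against HIF-1α, and the overexpression virus (FUGW) the human HIF-1α coding sequence. Cultures grown as spots were left intact or had their axons severed with a blade on day 7, and were collected uninjured or at 3 h or 12 h after the cut. Control and knockdown had 2 arrays at each of the 3 time points, and overexpression had 1 uninjured array, 2 at 3 h and 1 at 12 h. No array with an empty FUGW virus was analysed here, so both constructs were compared with the control shRNA, and the virus backbone cannot be told apart from the human HIF-1α it carries. The labels do not say whether replicate arrays came from separate cultures, so the p-values reflect the spread from array to array alone, and that spread may be technical. The deposited values are linear intensities with the background already subtracted. A value above 16 counts here as well above background, and a value of 16 or less as not well above background. Over the normalized log2 values of the probes that passed the filter, arrays of the same construct correlated at 0.991 to 0.995. Arrays of different constructs correlated at 0.917 to 0.953. Any difference between the culture or virus batches of the constructs cannot be told apart from the constructs. The probe for mouse Hif1a read 30.0 ± 7.96 in control (SD, n = 6), where 6 of 6 arrays were above 16. It read -2.64 ± 3.76 in knockdown (SD, n = 6) and 0.721 ± 4.44 in overexpression (SD, n = 4), where none of the 10 arrays was above 16. The overexpressed sequence is human, so this mouse probe does not check the overexpression.

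Immediate early genes are switched on within minutes of a stimulus by transcription factors that are already in the cell, among them serum response factor and CREB, and need no new protein synthesis. Many encode transcription factors themselves, and Fos and Jun family proteins pair through leucine zippers to bind AP-1 sites. Others encode brakes on the same signal, such as the phosphatase Dusp1, which inactivates MAP kinases. In injured sensory neurons Jun and Atf3 are known as injury-induced factors that take part in axon regrowth.

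The sequences before the gene starts were searched for the letters of known response elements. They are shown for the 3 of the 6 measured genes with a window whose 250 bases before the RefSeq start held a match to any of 5 motifs searched on both strands. The motifs were TGACGTCA (the cyclic AMP response element bound by CREB), TGANTCA (the AP-1 site), the CArG box (bound by serum response factor), ACGTG (the core of the hypoxia response element bound by HIF-1) and TATAAA (the TATA box). Capitals mark the matches, and all sequences are from RefSeq on GRCm38.p6, 5′ to 3′ on the gene's strand.
Fos, chr12:85473640-85473889, plus strand: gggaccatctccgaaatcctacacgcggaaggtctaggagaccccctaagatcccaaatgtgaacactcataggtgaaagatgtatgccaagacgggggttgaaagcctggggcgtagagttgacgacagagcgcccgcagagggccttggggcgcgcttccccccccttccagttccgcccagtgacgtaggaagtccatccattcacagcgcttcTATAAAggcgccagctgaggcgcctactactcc
Ier3, chr17:35821463-35821712, plus strand: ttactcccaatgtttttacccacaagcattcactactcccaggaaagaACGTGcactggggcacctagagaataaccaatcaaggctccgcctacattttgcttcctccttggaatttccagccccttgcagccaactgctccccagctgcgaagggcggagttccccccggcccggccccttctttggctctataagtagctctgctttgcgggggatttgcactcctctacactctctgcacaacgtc
Dusp1, chr17:26508473-26508722, minus strand: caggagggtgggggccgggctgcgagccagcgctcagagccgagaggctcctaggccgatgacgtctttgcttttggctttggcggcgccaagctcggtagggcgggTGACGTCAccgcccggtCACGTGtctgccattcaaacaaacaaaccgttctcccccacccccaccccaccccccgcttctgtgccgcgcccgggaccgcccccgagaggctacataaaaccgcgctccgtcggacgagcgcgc

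In Fos the TATA box begins at -33 from the start. In Ier3 the ACGTG core begins at -202. In Dusp1 the cyclic AMP response element begins at -143, and 6 letters read as ACGTG on both strands, from -126 and -125, because the match overlaps its own reverse complement. Windows of 300 bases, 250 before and 50 after the start, were matched for 8 of the genes. In them Junb held TATAAA at position 1 and Btg2 held TGACGTCA at -166, while Fosl2, Jun and Atf3 held none of the 5 motifs. None of these 8 windows held TGANTCA or the CArG box, and the starts of Egr1 and Ier2 were not analysed here. Of all 32851 windows, 1.79% held TGACGTCA, 7.81% TGANTCA, 1.63% the CArG box, 19.6% ACGTG and 13.6% TATAAA. A match describes the letters and does not show that a factor binds there. Variants of these letters and elements outside the windows were not searched. A window without a match therefore does not show that an element is absent.

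Egr1, Fos, Dusp1, Ier3, Jun, Atf3 and Junb were all higher in both knockdown and overexpression cultures than in control when the 3 time points were averaged. On the log2 scale, Egr1 was 3.18 higher in knockdown (SE 0.0933), and Ier3 was 3.15 (SE 0.0934) and Junb 2.73 higher (SE 0.0849) in overexpression. Of the 7 tested genes 7 were called higher in knockdown, beside 27.9% of all probes called higher and 56.8% called in either direction. In overexpression 7 of 7 were called higher, beside 24.3% of all probes called higher and 53.3% called in either direction. A call is an adjusted p under 0.05 in limma with Benjamini-Hochberg adjustment over all 15086 probes. The median difference of the 7 genes was 0.90 on the log2 scale in knockdown and 1.94 in overexpression, against -0.02 and -0.03 over all probes. Log2 differences are on a scale with an offset of 50 added to the intensity, which understates the change of dim probes. Junb and Atf3 were above 16 on 11 of 16 arrays each. Junb was above 16 on 1 of 6 control arrays and passed the filter only with construct arrays, so its presence in these counts adds no support. Atf3 was above 16 on 2 of 6 control arrays, enough for the filter, and on 5 of 6 knockdown and 4 of 4 overexpression arrays. Knockdown and overexpression share the control arrays.

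**Figure D1:**
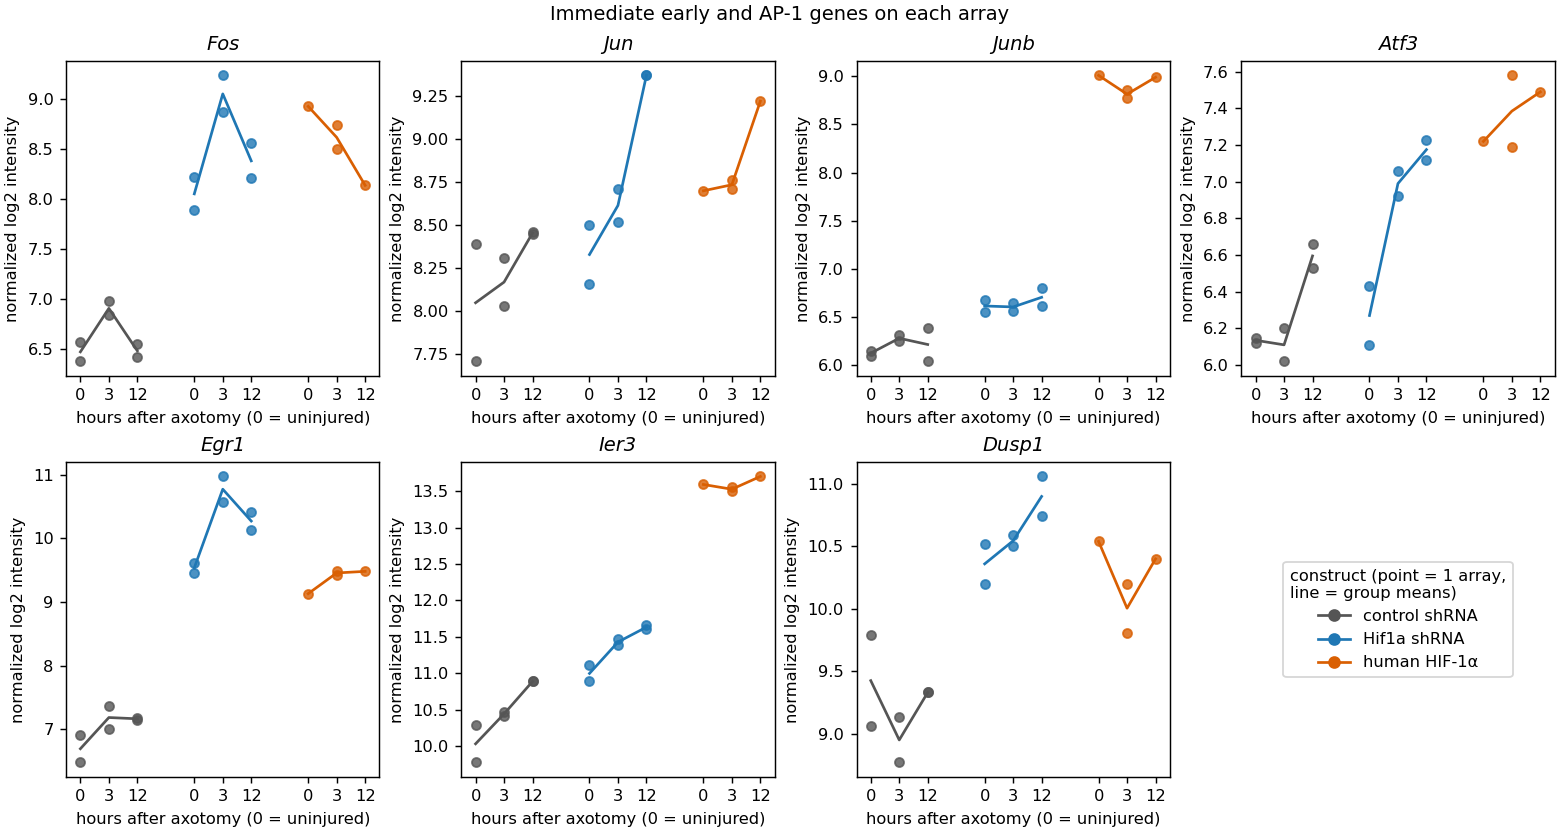
Normalized log2 intensity of the 7 measured genes on each of the 16 arrays (y axis; x axis, hours after axotomy within each construct; each point is 1 array and lines join group means). For all 7 genes the construct arrays averaged above control, and for Junb and Ier3 the 3 constructs formed separate ranges.

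Fos encodes the c-Fos subunit of AP-1. In control cultures its intensity was 16.6 and 28.5 uninjured, 47.5 and 59.6 at 3 h, and 27.1 and 19.1 at 12 h. In knockdown it was 171.0 and 232.2 uninjured, 400.7 and 537.0 at 3 h, and 310.2 and 230.1 at 12 h. In overexpression it was 421.4 uninjured, 295.2 and 360.9 at 3 h, and 215.1 at 12 h. Control was lowest at every time with no overlap, and the order of the 2 constructs changed with time: overexpression was higher uninjured, and knockdown was higher at 3 h and, by a narrow margin, at 12 h. Averaged over time, Fos was 1.87 higher than control in knockdown (95% interval 1.69 to 2.06) and 1.94 higher in overexpression (1.72 to 2.15) on the log2 scale. The difference between overexpression and knockdown was 0.06 (-0.15 to 0.28).

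Jun encodes c-Jun, a main partner of c-Fos. Its intensity in control was 269.9 and 143.2 uninjured, 250.5 and 194.4 at 3 h, and 283.3 and 284.4 at 12 h. In knockdown it was 294.2 and 218.9 uninjured, 351.4 and 300.9 at 3 h, and 592.9 and 596.7 at 12 h. In overexpression it was 348.8 uninjured, 368.1 and 351.3 at 3 h, and 530.9 at 12 h. The uninjured control arrays were far apart and overlapped with uninjured knockdown, while at 12 h both constructs stood clear of control. The average difference from control was 0.54 in knockdown (0.34 to 0.75) and 0.66 in overexpression (0.42 to 0.90) on the log2 scale, and 0.12 between the constructs (-0.12 to 0.35). Uninjured knockdown against control was 0.27 (limma, adjusted p = 0.232), 0.61 without control uninjured replicate 1 (adjusted p = 0.00687) and -0.07 without control uninjured replicate 2 (adjusted p = 0.803).

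Junb encodes JunB, an AP-1 subunit that can dampen c-Jun. In control it read 1.7 and 4.3 uninjured, 9.4 and 12.9 at 3 h, and 17.0 and -1.0 at 12 h, so that 1 of 6 arrays was above 16. In knockdown it read 35.7 and 27.3 uninjured, 33.6 and 27.5 at 3 h, and 31.0 and 44.8 at 12 h. In overexpression it read 448.4 uninjured, 370.2 and 396.8 at 3 h, and 440.4 at 12 h. The 3 constructs formed 3 separate ranges that did not overlap. With 16 in place of the control arrays, which were not well above background, overexpression was at least 28.0-fold higher uninjured (limma, adjusted p = 1.61e-11) and at least 24.0-fold higher at 3 h (adjusted p = 3.48e-12). The uninjured overexpression value is 1 array, whose spread was taken from the other groups. Knockdown was at least 1.95-fold higher than control uninjured (adjusted p = 0.00421). At 3 h knockdown was at least 1.9-fold higher, with an adjusted p of 0.0521 that missed the threshold. That difference was called with values floored at 16 (limma, adjusted p = 0.00384), an offset of 16 (0.0428), cyclic loess (0.0195), a filter on at least 8 arrays (0.0463) or 1 probe per gene (0.0458), and without either control 12 h array (0.0388 each). Overexpression was 2.30 above knockdown on the log2 scale averaged over time (2.12 to 2.47).

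Atf3 encodes a bZIP factor of the ATF family that pairs with Jun proteins. In control it read 4.1 and 2.9 uninjured, 6.9 and -1.7 at 3 h, and 25.6 and 34.6 at 12 h. In knockdown it read 2.7 and 19.8 uninjured, 66.8 and 54.3 at 3 h, and 72.3 and 83.6 at 12 h. In overexpression it read 82.1 uninjured, 79.0 and 125.0 at 3 h, and 113.5 at 12 h. Atf3 was near background in uninjured control and in 1 uninjured knockdown array, and well above it in every overexpression array. Uninjured overexpression was at least 5.13-fold higher than control (limma, adjusted p = 5.27e-05), again from 1 overexpression array, whereas uninjured knockdown differed by 0.14 on the log2 scale (-0.16 to 0.43, adjusted p = 0.49). At 3 h the construct arrays were at least 3.76-fold (knockdown, adjusted p = 3.98e-05) and at least 6.21-fold higher than control (overexpression, adjusted p = 4.41e-07). Averaged over time, overexpression was 0.55 above knockdown (0.36 to 0.75) on the log2 scale.

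Egr1 encodes a zinc finger transcription factor and is a classic immediate early gene. In control it read 22.7 and 53.6 uninjured, 61.3 and 99.3 at 3 h, and 78.0 and 75.2 at 12 h. In knockdown it read 638.1 and 714.0 uninjured, 1454.4 and 1937.7 at 3 h, and 1294.6 and 1056.6 at 12 h. In overexpression it read 492.5 uninjured, 623.6 and 645.3 at 3 h, and 647.6 at 12 h. Every construct array lay far above every control array, and at each time both knockdown arrays lay above overexpression. Egr1 was 3.18 higher than control in knockdown (2.98 to 3.37), a 9.05-fold difference on the offset scale, and 2.34 higher in overexpression (2.11 to 2.56), a 5.06-fold difference. Overexpression was 0.84 below knockdown, a log2 difference of -0.84 (-1.06 to -0.61; limma, adjusted p = 9.29e-07).

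Ier3 encodes a small early response protein that modulates apoptosis and ERK signalling. In control it read 810.2 and 1186.9 uninjured, 1300.6 and 1355.3 at 3 h, and 1830.0 and 1826.0 at 12 h. In knockdown it read 2145.5 and 1831.7 uninjured, 2776.5 and 2612.0 at 3 h, and 3050.6 and 3162.0 at 12 h. In overexpression it read 12245.7 uninjured, 11907.9 and 11480.1 at 3 h, and 13244.9 at 12 h. The ranges of the 3 constructs did not overlap, and the highest control value, 1830.0, lay next to the lowest knockdown value, 1831.7. The average difference from control was 0.90 in knockdown (0.73 to 1.07) and 3.15 in overexpression (2.95 to 3.34) on the log2 scale, the second an 8.86-fold difference. Overexpression exceeded knockdown by 2.25 (2.05 to 2.44).

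Dusp1 encodes a nuclear phosphatase that switches off MAP kinases. In control it read 815.9 and 465.4 uninjured, 493.6 and 369.2 at 3 h, and 574.7 and 576.6 at 12 h. In knockdown it read 1108.8 and 1400.1 uninjured, 1470.2 and 1386.3 at 3 h, and 2075.5 and 1649.4 at 12 h. In overexpression it read 1426.2 uninjured, 833.4 and 1113.1 at 3 h, and 1288.7 at 12 h. All construct arrays lay above all control arrays, and the closest overexpression array, at 833.4, was just above the highest control array. Dusp1 was 1.37 higher than control in knockdown (1.14 to 1.60) and 1.09 higher in overexpression (0.82 to 1.36) on the log2 scale. Overexpression against knockdown was -0.28 (-0.55 to -0.01; limma, adjusted p = 0.0644).

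Ier2, an early response gene for a nuclear protein, and Btg2, an antiproliferative gene, were not well above background on any of the 16 arrays. The Ier2 probe ranged from -13.2 to 10.8 and the Btg2 probe from -15.5 to 3.9, and no level or difference can be given for either gene. Under the current annotation on GRCm38.p6, the measured genes lie on several chromosomes: Fos on 12, Jun on 4, Junb and Ier2 on 8, Atf3 and Btg2 on 1, Egr1 on 18, and Ier3 and Dusp1 on 17.

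Set against each other, the 2 constructs differed for 4 of the 7 genes, beside 60.1% of all probes, so this count is near the background. Ier3, Junb and Atf3 were higher in overexpression, beside 28.7% of all probes called higher, and Egr1 was lower, beside 31.4% called lower. For Fos, Jun and Dusp1 the intervals of the difference are given above, and a p that misses the threshold does not show that the constructs act alike on them. At single time points, knockdown against control called 5 of 7 genes uninjured, 6 at 3 h and 7 at 12 h, all higher. The share of all probes called at those times was 36.7%, 40.6% and 38.6%, and the share called higher was 18.8%, 19.8% and 19.2%. Overexpression against control called 7 of 7 genes at each time, all higher, beside 32.7%, 36.4% and 32.1% of all probes called and 15.4%, 17.1% and 15.1% called higher. The uninjured and 12 h overexpression groups are 1 array each, with the spread taken from the other groups. The knockdown call of Jun at 3 h (0.45, limma, adjusted p = 0.0422) was lost without either control 12 h array (adjusted p = 0.0521 each), without control 3 h replicate 2 (0.284), without knockdown 3 h replicate 1 (0.218) or 2 (0.0507) and without either knockdown 12 h array (0.0535 each). The overexpression call of Jun was lost uninjured without control uninjured replicate 2 (adjusted p = 0.264) and at 3 h without control 3 h replicate 2 (0.14) or overexpression 3 h replicate 1 (0.0653). The knockdown call of Junb at 12 h was lost without control 12 h replicate 2 (adjusted p = 0.112) or knockdown 12 h replicate 2 (0.0649).

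**Figure D2:**
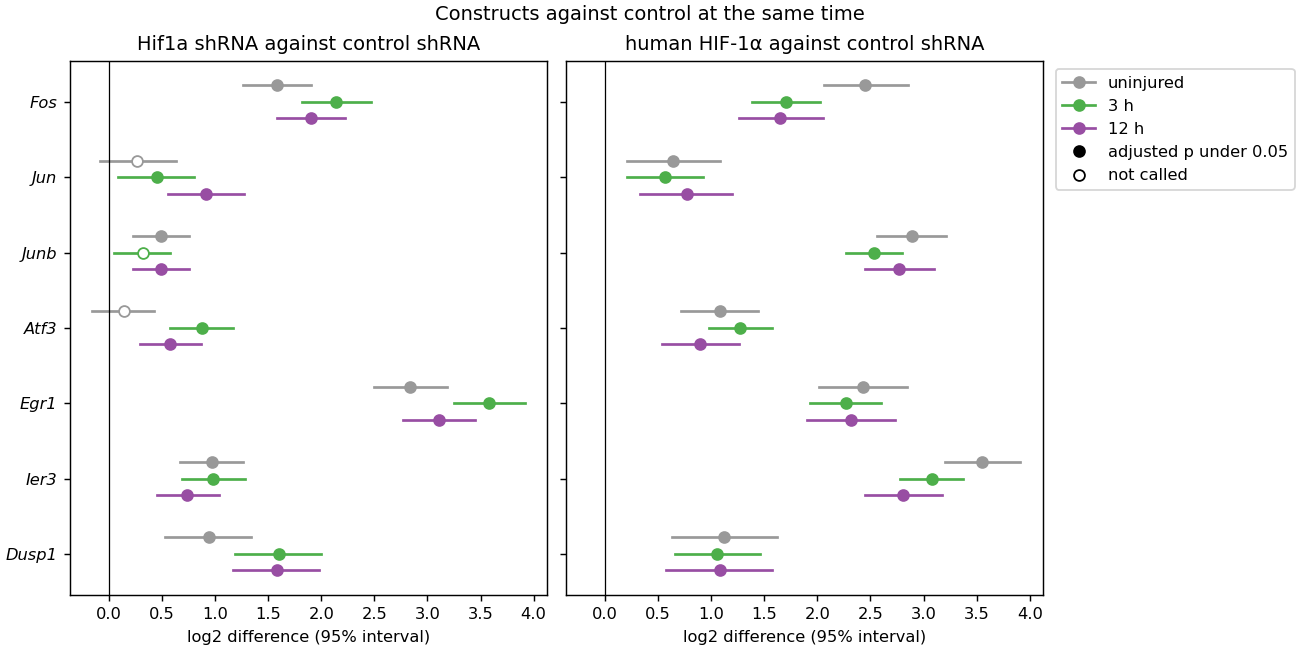
Log2 differences of the 7 genes from control at each time (x axis, with 95% intervals; colours, time; left, Hif1a shRNA; right, human HIF-1α; open symbols, not called). Knockdown calls were missing for Jun and Atf3 uninjured and for Junb at 3 h, and every overexpression difference was called.

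Fewer of these genes were called after axotomy than between the constructs. In control cultures at 3 h, 0 of 7 genes were called, beside 0 of all 15086 probes, and 4 of the 7, namely Egr1 (0.49), Fos (0.43), Ier3 (0.41) and Dusp1 (-0.47), had an unadjusted p under 0.05 in limma, beside 5.84% of all probes. For Egr1, Fos and Ier3 both 3 h arrays exceeded both uninjured arrays, and for Dusp1, Jun and Atf3 the groups overlapped. The same separation was seen for Junb, which was not well above background. The share of all probes separated in this way was not counted, so the separation adds no support. At 12 h in control cultures, Ier3 rose by 0.85 on the log2 scale (0.56 to 1.15, limma, adjusted p = 0.0325). It was 1 of 3 probes called, 0.0199% of all probes, 2 of them higher (0.0133%). The other two were Thy1, a neuronal surface glycoprotein (0.88), and Hbb-y, an embryonic globin (-1.83). Atf3 was not well above background in uninjured control and was at least 1.86-fold higher at 12 h (adjusted p = 0.549).

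In knockdown cultures Egr1 and Fos were called higher at 3 h, and Jun and Atf3 at 12 h. At 3 h Egr1 rose by 1.24 on the log2 scale (0.90 to 1.57, limma, adjusted p = 0.00409) and Fos by 1.0 (0.67 to 1.32, adjusted p = 0.0235). These were 2 of the 3 probes called at 3 h, 0.0199% of all probes and all higher, and ranked first and second by p among all 15086 probes. At 12 h Jun rose by 1.04 (0.69 to 1.40, adjusted p = 0.0102), a 2.06-fold difference, and Atf3 by 0.90 (0.61 to 1.20, adjusted p = 0.0102), beside 39 probes called (0.259%), 0.126% higher. Egr1 at 12 h differed from uninjured by 0.74 (adjusted p = 0.0566) and Ier3 by 0.63 (adjusted p = 0.0586). Fos at 12 h was at 310.2 and 230.1, of which the lower lay inside the uninjured range, and differed from uninjured by 0.33 (adjusted p = 0.465).

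In overexpression cultures 0 of 7 genes were called at 3 h, where 2 probes were called in all (0.0133%), and 0 of 7 at 12 h, where 0 probes were called. These comparisons rest on 1 uninjured array, whose spread was taken from the other groups, and 1 and 2 of the genes had an unadjusted p under 0.05, beside 8.07% and 7.56% of all probes. Fos was highest uninjured, at 421.4, and lowest at 12 h, at 215.1, a difference of -0.79 (-1.25 to -0.34, limma, adjusted p = 0.331). Jun was at 348.8 uninjured and at 530.9 at 12 h, a difference of 0.52 (0.02 to 1.03, adjusted p = 0.64). Junb, Ier3 and Egr1 differed by -0.02, 0.11 and 0.35 at 12 h.

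Averaged over the 3 constructs, Egr1 rose at 3 h by 0.68 on the log2 scale (0.47 to 0.89, limma, adjusted p = 0.00757), 1 of 4 probes called (0.0265%, 0.0199% higher). At 12 h Jun rose by 0.66 (0.42 to 0.89, adjusted p = 0.0129), Atf3 by 0.55 (0.35 to 0.74, adjusted p = 0.0129), Ier3 by 0.53 (0.34 to 0.73, adjusted p = 0.0133) and Egr1 by 0.52 (0.29 to 0.74, adjusted p = 0.043). These were 4 of 7 genes, beside 62 probes called (0.411%), 0.245% higher. Between 3 h and 12 h no gene was called, and 0 of all probes were: Fos differed by -0.52 (adjusted p = 0.0523) and Jun by 0.51 (adjusted p = 0.0631), with 5 of 7 genes at an unadjusted p under 0.05 beside 10.9% of all probes.

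Except for Egr1 in the 3 h average, each axotomy call was lost in some run without 1 array. The Ier3 call in control was lost without control uninjured replicate 1 (limma, adjusted p = 0.31), either control 3 h array (0.0574 each), control 12 h replicate 1 (0.419) or 2 (0.229) or either knockdown 12 h array (0.074 each). The 3 h calls in knockdown were both lost without knockdown uninjured replicate 1 (adjusted p = 0.208 for Egr1 and 0.688 for Fos) or knockdown 3 h replicate 2 (0.285 for both). At 12 h the Jun call in knockdown was lost without knockdown uninjured replicate 2 (0.106), knockdown 12 h replicate 1 (0.0753) or 2 (0.24), and the Atf3 call without knockdown uninjured replicate 1 (0.142) or knockdown 12 h replicate 2 (0.24). In the 12 h average, 0 genes were called without knockdown 12 h replicate 2, 1 without knockdown uninjured replicate 2 and 2 without control 12 h replicate 1. The Egr1 call in that average was lost in 9 of the 14 runs without 1 array. These left out control uninjured replicate 1 (adjusted p = 0.078), control 12 h replicate 1 (0.127) or 2 (0.068), knockdown uninjured replicate 1 (0.0744) or 2 (0.0666), knockdown 12 h replicate 1 (0.0941) or 2 (0.0592), or either overexpression 3 h array (0.0517 each). Without either control uninjured array, the knockdown count at 12 h rose to 4, with Ier3 (adjusted p = 0.0227 each) and Egr1 (0.0365 each), and the count for 12 h against 3 h rose to 2, with Fos (0.036 each) and Jun (0.0285 each). The Egr1 call in the 3 h average held without each of the 15 arrays that could be left out, which do not include the uninjured overexpression array. With an offset of 16 in place of 50, none of the axotomy calls remained, while the direction of each was the same.

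**Figure D3:**
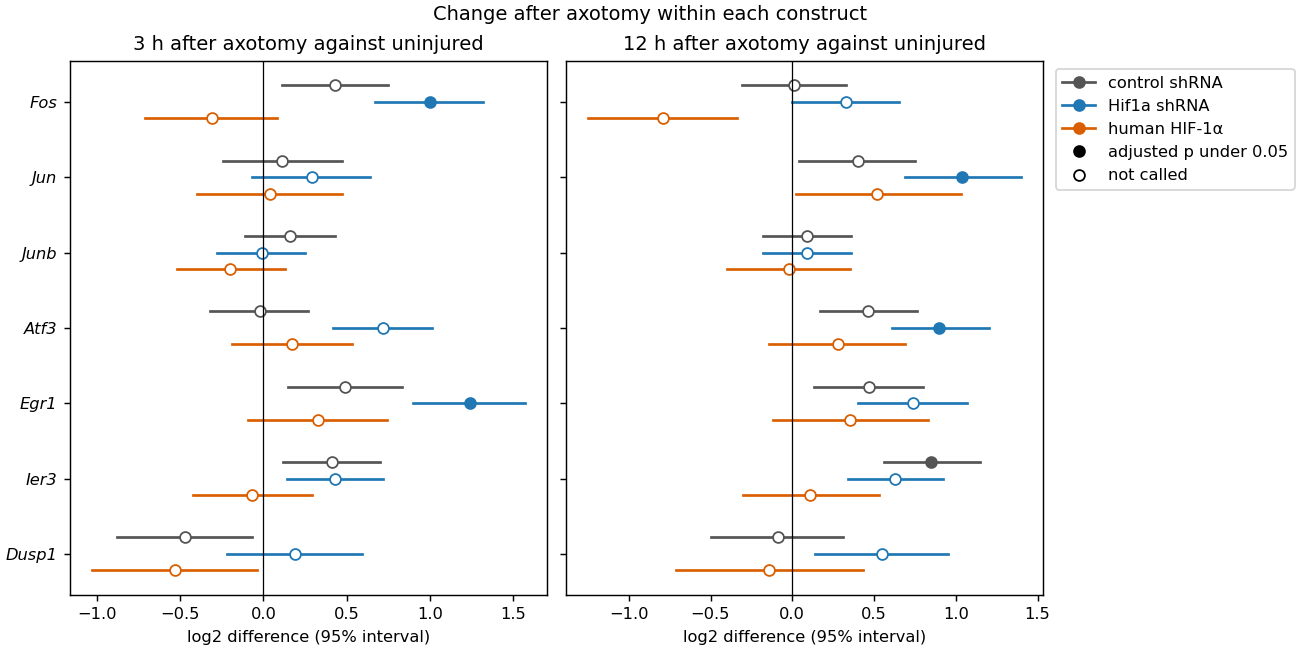
Log2 change of the 7 genes at 3 h and 12 h after axotomy against uninjured cultures of the same construct (x axis, with 95% intervals; colours, construct; open symbols, not called). Egr1 and Fos were called at 3 h and Jun and Atf3 at 12 h in knockdown, and Ier3 at 12 h in control.

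Whether the response to axotomy itself differed between constructs was tested as an interaction over 3 h and 12 h together. No gene was called in either interaction, and neither was any of the 15086 probes. Of the 7 genes, 4 had an unadjusted p under 0.05 for knockdown, beside 5.63% of all probes, and 2 for overexpression, beside 5.81%. The 4 for knockdown were Atf3, Egr1, Dusp1 and Jun. Single times were compared in separate contrasts, chosen after seeing the data. In knockdown the 3 h change exceeded that in control by 0.74 for Atf3 (SE 0.199, limma, adjusted p = 0.632), 0.74 for Egr1 (SE 0.229, adjusted p = 0.675), 0.66 for Dusp1 (SE 0.274, adjusted p = 0.811) and 0.56 for Fos (SE 0.219, adjusted p = 0.766). The 12 h change exceeded that in control by 0.64 for Dusp1 (SE 0.274) and 0.64 for Jun (SE 0.241, limma, adjusted p = 0.911 for both). Junb at 3 h (-0.17) and Ier3 at 12 h (-0.22) went the other way. The offset added to the intensity understates the change of dim probes, and Atf3, Egr1 and Fos were dimmer in control. The Dusp1 and Jun probes were brighter, at mean intensities of 641.0 and 207.0 in uninjured control. Mean Fos intensity went from 22.6 uninjured to 53.6 at 3 h in control, and from 202.0 to 469.0 in knockdown. Mean Egr1 intensity went from 38.2 to 80.3 in control, and from 676.0 to 1700.0 in knockdown. Atf3 was not well above background in control at either time. The part of the offset in these differences was not tested. The comparison that came closest was the 3 h change of Fos in overexpression against that in knockdown, at -1.31 (SE 0.244, adjusted p = 0.254). The overexpression change rests on 1 uninjured array, whose spread was taken from the other groups. A difference in the axotomy response between the constructs was thus not called at this number of arrays.

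**Figure D4:**
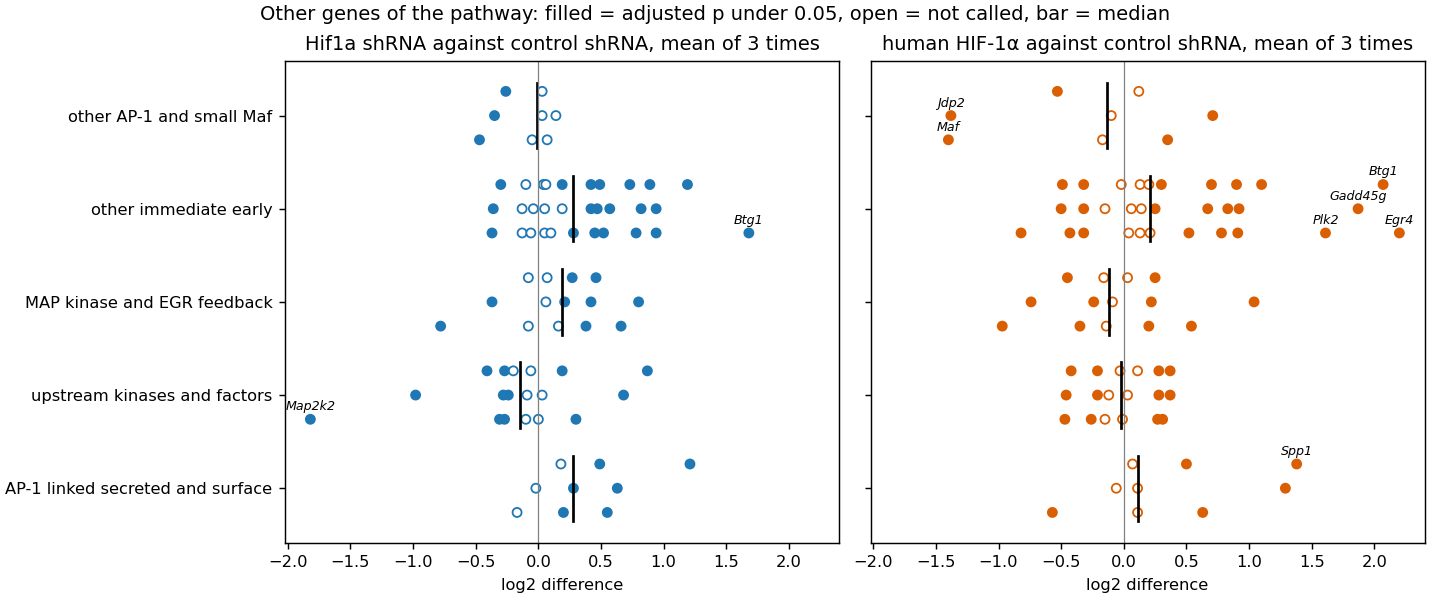
Log2 difference from control, averaged over 3 times, of other genes of the pathway in 5 lists (x axis; each point is 1 gene by its brightest probe; filled, called; open, not called; bar, median of the list; vertical position within a row only separates the points). Left, Hif1a shRNA; right, human HIF-1α.

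Counts in the lists of other genes are read against all probes, of which 27.9% were called higher and 28.9% lower in knockdown, and 24.3% higher and 29% lower in overexpression. A list's share near these is not a result about the list.

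Of the other AP-1 and small Maf genes, 8 had a probe that passed the filter. In knockdown 0 were higher and 3 lower, beside 27.9% and 28.9% of all probes, with a median of -0.01. The 3 were Jund, an AP-1 subunit (-0.47), Atf2, a bZIP factor that pairs with c-Jun (-0.35), and Mafg, a small Maf protein (-0.26). In overexpression 2 were higher and 3 lower, with a median of -0.13. Over all probes 24.3% were higher and 29% lower in overexpression, so these counts are near the background. Maf fell by 1.40 on the log2 scale, from an intensity of 135.0 ± 26.4 in control (SD, n = 6) to 10.7 ± 5.67 (SD, n = 4), with 1 of these 4 arrays above 16, and Jdp2, a repressor that binds AP-1 sites, fell by 1.38, from 275.0 ± 37.2 to 67.4 ± 14.5. Maff rose by 0.71, from 28.5 ± 6.6 to 88.6 ± 9.82, and Fosb by 0.35.

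Of 31 other immediate early genes, 17 were higher and 3 lower in knockdown, with a median of 0.28, and 15 were higher and 7 lower in overexpression, with a median of 0.21, beside 27.9% higher in knockdown and 24.3% higher in overexpression over all probes. Of the 31, 7, among them Egr4 and Sgk1, were above 16 on no control array and passed the filter only through construct arrays, so their calls add no support to these counts. Btg1, an antiproliferative relative of Btg2, rose from 314.0 ± 33.7 in control (SD, n = 6) to 1160.0 ± 136.0 in knockdown (SD, n = 6) and 1500.0 ± 163.0 in overexpression (SD, n = 4), log2 differences of 1.68 and 2.07. Plk2, an activity-induced kinase (0.94 and 1.61), and Gadd45g, a stress sensor (1.19 and 1.87), rose in both. Sgk1, a serum-induced kinase gene, was at most 10.2 in control and was at least 3.61-fold higher in knockdown (limma, adjusted p = 1.89e-09). Egr4, a relative of Egr1, was at most 4.9 in control and between 192.6 and 311.6 in overexpression, at least 14.8-fold higher (adjusted p = 2.92e-13). Egr2, above 16 on no control array, and Egr3 differed from control by 0.19 and 0.04 in knockdown and by 0.13 and 0.04 in overexpression, and none of these was called. After axotomy, Gadd45a rose by 0.83 in the 12 h average (limma, adjusted p = 0.00209) and Homer1, a synaptic scaffold gene, fell by 0.67 at 12 h in knockdown (adjusted p = 0.0474). No other gene of this list and none of the other 4 lists was called in the axotomy comparisons of single constructs or of their average.

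Genes for negative feedback on MAP kinase and Egr signalling moved in both directions. In knockdown 7 of 14 were higher and 2 lower, with a median of 0.19, and in overexpression 5 were higher and 5 lower, with a median of -0.12. Over all probes 27.9% and 24.3% were higher, and 28.9% and 29% lower. Dusp7 and Dusp8, phosphatases related to Dusp1, were higher in knockdown (0.46 and 0.66) and lower in overexpression (-0.97 and -0.74). Dusp6, an ERK phosphatase, rose by 0.80 in knockdown, and Spred1, an inhibitor of Ras signalling, fell by 0.78. Dusp4 and Dusp14 rose by 1.04 and 0.54 in overexpression.

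Of 18 upstream kinases and factors, 4 were higher and 8 lower in knockdown and 6 were higher and 6 lower in overexpression, with medians of -0.15 and -0.02. Over all probes 56.8% and 53.3% were called in either direction, so these counts are near the background. Map2k2, which encodes the ERK kinase MEK2, fell by 1.82 in knockdown, from 5270.0 ± 261.0 in control (SD, n = 6) to 1450.0 ± 171.0 (SD, n = 6), and read 5400.0 ± 242.0 in overexpression (SD, n = 4). In knockdown Mapk14 fell by 0.98, Mapk8, which encodes JNK1, rose by 0.87, and Crtc3, a CREB coactivator, rose by 0.68. In overexpression Mapk3 (-0.47) and Mapk9 (-0.46) were lower and Map2k4 (0.37) was higher. Creb1, which encodes CREB, read 18.2 to 29.3 in control and was above 16 on no overexpression array, at least 1.41-fold lower (limma, adjusted p = 0.000115).

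Secreted and surface genes linked to AP-1 were higher for 6 of 9 and lower for 0 in knockdown, with a median of 0.28, and higher for 4 and lower for 1 in overexpression, with a median of 0.11, beside 27.9% and 24.3% of all probes higher. Of the 9, 3 were above 16 on no control array and passed the filter only through construct arrays, among them Spp1 and Lif, whose calls add no support to these counts. Spp1, which encodes the secreted protein osteopontin, was at most 13.9 in control and was at least 5.46-fold higher in knockdown (limma, adjusted p = 1.28e-09) and at least 7.1-fold higher in overexpression (adjusted p = 2.15e-09). Hmox1, a stress-induced haem oxygenase and a known HIF-1 target, rose by 0.49 and 1.29. The cytokine gene Lif was called higher in both, but it was above 16 on 3 of 6 knockdown arrays (at least 1.25-fold higher) and on no control or overexpression array, where no fold is given. Plaur, the urokinase receptor gene, rose by 0.63 in knockdown, and Timp1, a protease inhibitor gene, by 0.63 in overexpression.

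Markers of other cell types also differed between the constructs. The summed intensity of 13 sensory neuron markers was 83583 to 91820 in control, 69194 to 75232 in knockdown and 59953 to 65230 in overexpression, and 12 of the 13 were above 16 on every array, with Nefl above 16 on none. These markers did not move together. In knockdown 1 of 12 tested was higher and 5 lower, beside 27.9% and 28.9% of all probes. In overexpression 2 were higher and 8 lower, beside 24.3% and 29%. Calca averaged 15400.0 in control, 3550.0 in knockdown and 13300.0 in overexpression, and Stmn2 25700.0, 27000.0 and 8950.0. Isl1 averaged 3080.0, 6090.0 and 5680.0. The sum over 7 Schwann cell and satellite glia markers was 290 to 578 in control, 455 to 682 in knockdown and 988 to 1913 in overexpression, and Cdh19, Fabp7 and Foxd3 were above 16 on no array. The sum over 9 fibroblast markers was 84 to 178, 370 to 501 and 220 to 287, with Col1a1, Col3a1, Lum and Postn above 16 on no array. The fibroblast markers did not move together. In knockdown Pdgfra averaged 206.0 and Dcn 183.0, against 9.3 and 49.5 in control, while Twist2 averaged 20.3 against 50.1. In overexpression Twist2 averaged 210.0, Dcn was above 16 on 1 of 4 arrays and Pdgfra on none. The sum over 8 endothelial markers was 37 to 73, 97 to 146 and 71 to 109, with Cdh5, Cldn5 and Emcn above 16 on no array. The sum over 9 macrophage markers was 80 to 150, 107 to 166 and 208 to 313, with Cx3cr1, Adgre1, Itgam, Fcer1g and Ptprc above 16 on no array. The marker Aif1 alone averaged 87.4, 113.0 and 228.0, beside median sums of 111, 148 and 258. These are bulk cultures, in which fewer cells of a type and less RNA per cell cannot be told apart, and the part of the cell makeup in the differences of the immediate early genes was not tested.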

How the data were processed

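RNA from 16 samples was measured on Illumina mouse arrays, read with GenomeStudio per the submitters' processing notes. The deposited series table gives linear intensity values for 25697 probes per array. How they were made is not given in the sources used here, but the values run below 0 and the arrays share an upper quartile, so the deposited intensities are background-subtracted and normalized. The other table's 32 signal and detection columns match no labelled sample and were not used, except for its probe symbols. Arrays carry no counts, and their number limits the precision.

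Intensities were corrected with normexp (offset 50), quantile-normalized and log2-transformed, since the plan's fallback for already corrected values applied. Probes above 16 on at least 2 arrays were kept. limma 3.58.1 (R 4.3.3) was fitted to 15086 probes with 9 group means (7 residual and 12.6 prior degrees of freedom), and p-values were adjusted by Benjamini-Hochberg over all probes. The steps were tested on simulated data. Alternatives were another offset, a floor, other normalizations, filters, probe choices, priors and samples, a replicate block and leaving out each array. The differences in axotomy change between pairs of constructs were chosen after seeing the data.

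The 10 genes and all lists were chosen with earlier results of these data known. All probes of the 10 genes are given. Of each other list, up to 4 genes with the smallest adjusted p per average are named. Fosb, Egr2, Egr3 and Homer1 were added after their values were seen, and a named gene's value in the other construct is given where it bears on it. Other lists use each gene's brightest probe. One marker gene is not reported here and was left out of its list. Same-numbered arrays of 21 pairs of groups had correlations of deviations from -0.158 to 0.298, over 0.1 in 6 of the 21, so numbers were not taken to pair arrays.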

Additional observations from a re-analysis of the deposited data

How the results depend on the processing

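The construct averages called 7 of 7 genes against control under each of the alternatives run, and 4 or 5 between the constructs. At single times the counts stayed between 5 and 7. Counts of called genes after axotomy moved more. With deposited values floored at 16, and with an offset of 16, the 12 h control count fell from 1 to 0, the 3 h knockdown count from 2 to 0 and the 3 h average from 1 to 0. The 12 h knockdown count fell from 2 to 1 and 0, and the 12 h average from 4 to 1 and 0. With only the groups compared, the counts were 0 for control at 12 h, 1 for knockdown at 3 h and 2 for 12 h against 3 h. The 12 h knockdown count was 4 with no filter, with 1 probe per gene and with an intensity trend and robust prior, and the count for 12 h against 3 h was 2 with each of these and 1 with cyclic loess. With the replicate block the count for 12 h against 3 h rose from 0 to 2 (Fos, -0.50, limma, adjusted p = 0.0409, and Jun, 0.47, 0.0475), the 12 h knockdown count from 2 to 3 (Egr1, 0.74, 0.0365) and the count between the constructs from 4 to 5 (Dusp1, -0.32, 0.0409). Leaving out 1 array gave 0 to 1 for control at 12 h, 0 to 2 for knockdown at 3 h, 0 to 4 for knockdown at 12 h and for the 12 h average, and 0 to 2 for 12 h against 3 h. The cause of these moves was not tested.

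Over all probes, the 10 settings other than leaving out an array moved the axotomy counts from 39 to between 2 and 84 (knockdown, 12 h), from 62 to between 7 and 106 (12 h average), from 4 to between 2 and 20 (3 h average), from 3 to between 0 and 5 (control, 12 h), from 3 to between 0 and 3 (knockdown, 3 h), from 2 to between 0 and 167 (overexpression, 3 h), from 0 to between 0 and 114 (overexpression, 12 h), from 0 to between 0 and 17 (control, 3 h) and from 0 to between 0 and 37 (12 h against 3 h). Knockdown and overexpression interactions called 0 to 3 and 0 to 89 probes.

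Small uncalled differences changed sign when 1 array was left out. After axotomy in control, the lowest and highest log2 values without 1 array were -0.11 and 0.07 for Atf3 and -0.23 and 0.46 for Jun at 3 h, and -0.09 and 0.26 for Junb, -0.46 and 0.27 for Dusp1 and -0.09 and 0.11 for Fos at 12 h. In knockdown they were -0.08 and 0.05 for Junb at 3 h and -0.01 and 0.18 at 12 h, and in overexpression -0.03 and 0.37 for Atf3 at 3 h. In the averages they were -0.04 and 0.00 for Junb at 3 h (also 0.02 with an offset of 16), and -0.01 and 0.11 for Junb and -0.02 and 0.23 for Dusp1 at 12 h. For knockdown against control uninjured they were -0.02 and 0.30 for Atf3 and -0.07 and 0.61 for Jun. Slide as a block was not run, since the labels tie no slide to a sample, and overexpression at 12 h could not be fitted with only its groups. Probes near 16 give no usable level.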

Other observations

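Over the 9 group means of the normalized log2 values, the probes most like Fos were those of Pde4dip (Pearson r 0.981), H2bc15 (0.973) and Rpl19 (0.97). Those most like Egr1 were Golga5 (0.995), Ahnak (0.991) and Moxd1 (0.984), and those most like Atf3 were Brix1 (0.954), Pcsk7 (0.953) and LOC100046232 (0.95). The 9 points share constructs and arrays, and the correlations are a description of these arrays.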
